A study of Mus musculus with 14 samples.

Results

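Efferocytosis, the uptake of dying cells by phagocytes, rests on receptors that recognise phosphatidylserine on the dying cell, either directly or through soluble bridging molecules. The 10 genes described here were chosen by name for these roles: the receptor tyrosine kinases Mertk and Axl, their bridging ligand Gas6, the bridging molecule Mfge8, the 3 chains of complement C1q (C1qa, C1qb and C1qc), the integrin subunits Itgav and Itgb5, and the direct phosphatidylserine receptor Timd4. They are 10 of 55414 genes in the count table, and 9 of them had enough counts to be among the 12851 genes tested. Timd4 did not.

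Gas6 binds phosphatidylserine at one end and the receptors Mertk and Axl at the other, and macrophages both make the ligand and carry the receptors. Mfge8 links phosphatidylserine to the αvβ3 and αvβ5 integrins, whose subunits include the products of Itgav and Itgb5. C1q, which starts the classical complement pathway and also coats dying cells, is assembled from 3 different chains, and macrophages are a main source of it. Timd4 is known mainly as a receptor of long-lived resident macrophages.

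Primary bone marrow-derived macrophages (pBMDMs) of wild-type C57BL/6N mice, grown out with M-CSF, were kept for 24 h in filtered supernatant of Pfa1 cells, a line of mouse embryonic fibroblasts, or in fresh medium. In Pfa1 cells 4-hydroxytamoxifen (4OHT) deletes Gpx4, the enzyme that detoxifies lipid peroxides, and the cells then die by ferroptosis, which Ferrostatin-1 inhibits. The 5 groups were ctrl (supernatant of untreated, living Pfa1 cells, 3 libraries), Fer1 (Ferrostatin-1 alone, 3 libraries), Tam Fer1 (4OHT with Ferrostatin-1, cells kept alive, 3 libraries), Tam (4OHT, ferroptotic cells, 3 libraries) and medium ctrl (fresh medium that no cell had conditioned, 2 libraries, replicates 1 and 2). The macrophages had the same genotype in all groups, the Pfa1 cells are 1 cell line, and in Tam against ctrl the death of the cells, the loss of Gpx4 and the 4OHT itself cannot be told apart. The Fer1 and Tam Fer1 supernatants came from cultures given Ferrostatin-1. Where such a group is set against one without it, its own action on the macrophages cannot be told apart either. No uptake was measured in these libraries, only messenger RNA from the 3′ end of transcripts, and in such bulk samples fewer cells of a type and less RNA per cell cannot be told apart.

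The deposited libraries held 7823028 to 11052333 counts. All 8 macrophage markers checked, among them Adgre1 (F4/80), Csf1r and Spi1, were present in every library. The summed level of the 10 fibroblast markers lay between 16.8 and 124 CPM (the count as a share of the library, on a common scale) and that of the 4 monocyte markers between 23.3 and 406 CPM, while 0 of 6 dendritic cell and 0 of 5 lymphocyte markers reached the counts needed for testing. The 9 neutrophil markers, of which 4 were tested and Ly6g and Elane were at 0 in every library, summed to 39.1 and 56.6 CPM in medium ctrl, 2.87 to 17.4 CPM in ctrl and 4.05 to 28.2 CPM in Tam. The macrophage marker sum, most of which is Lyz2, was not even across groups. It was 19289 to 28250 CPM in ctrl, 22876 to 29375 CPM in Tam Fer1, 28570 to 44262 CPM in Tam and 27979 and 34762 CPM in medium ctrl. Libraries of one group differed by far more than counting noise (chi-square divided by its degrees of freedom, 10.9 to 79.4 over the 13 pairs of replicates). CPM values given below are scaled by TMM, a correction for library composition. Each transcript is counted at its 3′ end, so CPM is not divided by transcript length, and levels are compared between groups and not between genes.

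Log2 fold changes come from edgeR's quasi-likelihood test with group and replicate number in the model, and p-values were adjusted over the 12851 genes by the Benjamini-Hochberg method. A gene was called where its absolute log2 fold change was above 1 and its adjusted p under 0.05. Full separation of the libraries of 2 groups was seen in 11% of all tested genes for Tam against ctrl, 10.2% for Tam against Tam Fer1, 34.5% for medium ctrl against ctrl and 28.6% for Tam against medium ctrl, and separations named below are to be read against these shares. An exact two-sided permutation test of the libraries cannot give a p below 0.1 with 3 against 3 or with 3 against 2, so no single gene can reach 0.05 by it.

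Between ferroptotic (Tam) and ctrl supernatant edgeR called 0 of the 9 genes, where 1.11% of all tested genes were called and 1.49% had an adjusted p under 0.05. At an unadjusted p under 0.05 there were 2 of them, Mertk and Itgav, beside 10.8% of all tested genes, and DESeq2 called 0. Fresh medium against ctrl supernatant gave 1 call, Gas6, where 7.79% of all tested genes were called, and Mertk passed the adjusted p, as did 10.9% of all tested genes, without reaching the fold threshold. At an unadjusted p under 0.05 there were 3, beside 24% of all tested genes, and DESeq2 called 2. Markers of other cells moved in the same comparison: 2 of 4 tested neutrophil markers (Ngp and S100a8) and 2 of 5 tested fibroblast markers (Col1a1 and Col1a2) were called higher in medium ctrl than in ctrl. Of the 8 macrophage markers, 2 passed the adjusted p there, both higher in medium ctrl and under the fold threshold. In Tam against ctrl, 0 of the 8 passed it. Col1a1 and Col1a2 were also called lower in Tam than in medium ctrl, as was the macrophage marker Fcgr1, where 3.07% of all tested genes were called. In Tam against Tam Fer1, 1 of 5 tested fibroblast markers was called lower, where 1.03% of all tested genes were called. The part of these cells in the differences between groups was not tested.

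**Figure D1:**
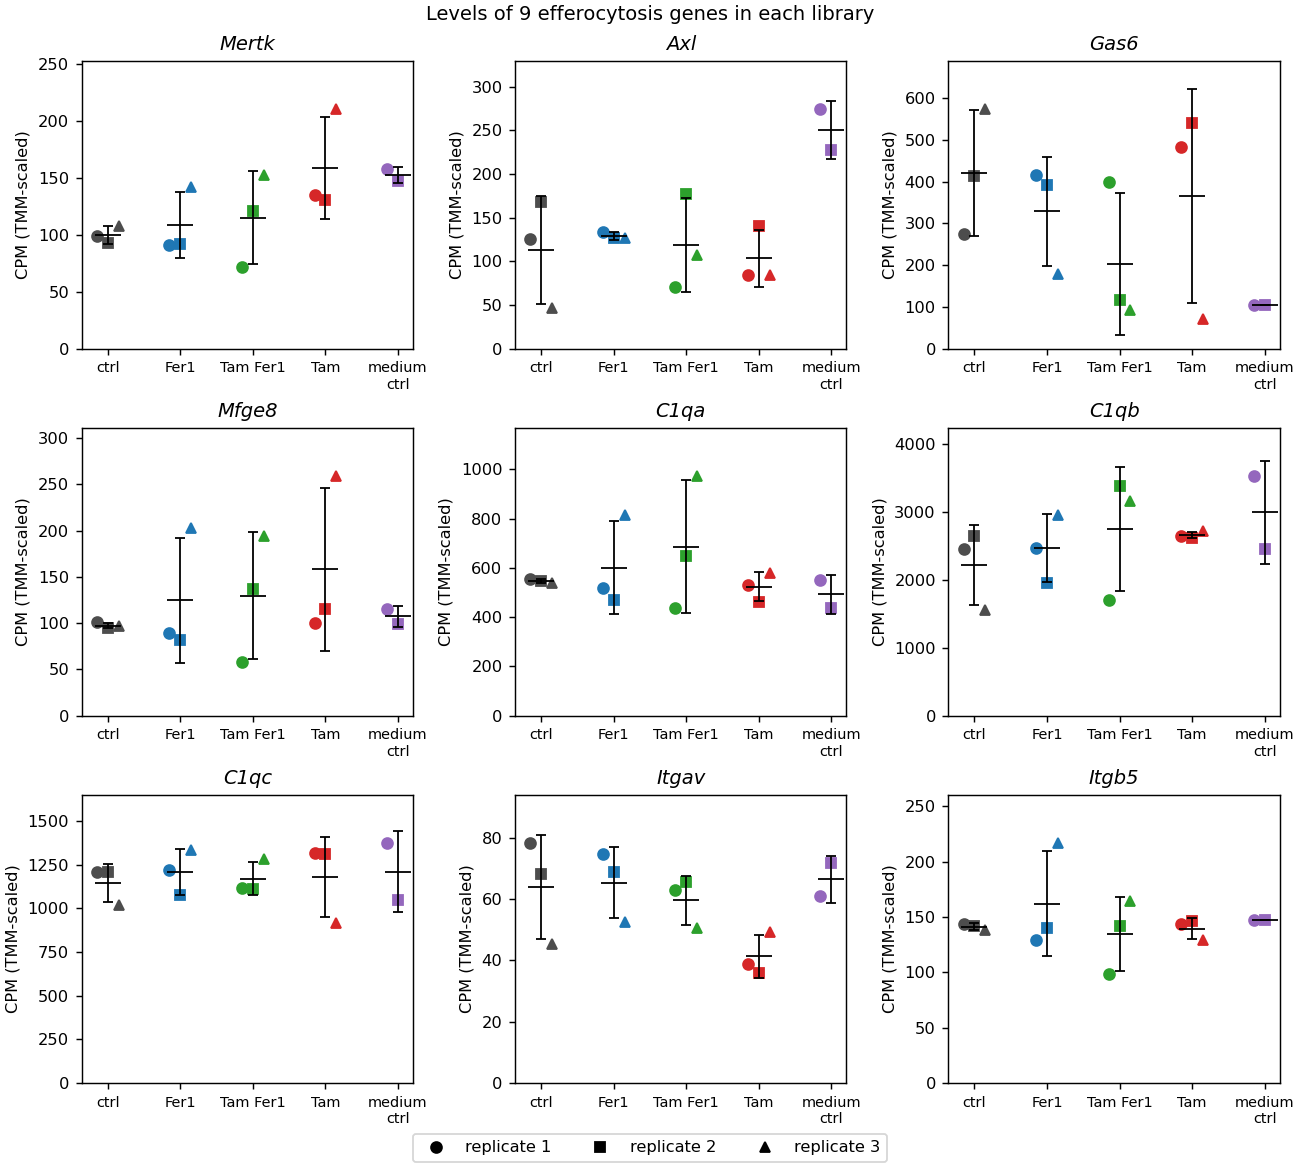
Levels of the 9 tested genes in each of the 14 libraries, as TMM-scaled CPM on linear axes that start at 0; each point is a library (shape: replicate number), the horizontal line is the group mean and the bar is ± 1 SD. Mertk lies higher in all 3 Tam libraries than in all 3 ctrl libraries, Gas6 ranges from 70.6 to 574 CPM, and both medium ctrl libraries are near 104 CPM for Gas6.

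Mertk (ENSMUSG00000014361, chr2:128698956-128802894, plus strand) encodes a main kinase receptor of macrophages for the uptake of apoptotic cells. Its level was 98.8, 92.8 and 108 CPM in ctrl replicates 1, 2 and 3 and 135, 131 and 211 CPM in the Tam replicates. Fer1 libraries held 91.5, 92.0 and 142 CPM, Tam Fer1 libraries 71.6, 121 and 153 CPM, and medium ctrl libraries 158 and 147 CPM. Every Tam library thus stood above every ctrl library, whereas the Tam and Tam Fer1 groups overlapped. Of the 9 genes, Mertk was the only one whose Tam and ctrl libraries were fully separated, as were 11% of all tested genes.

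The Mertk mean was 99.9 ± 7.72 CPM in ctrl (SD, n = 3) and 159 ± 44.8 CPM in Tam (SD, n = 3). By edgeR's quasi-likelihood test the log2 fold change was 0.63 (SE 0.18, 95% interval 0.23 to 1.03), with an unadjusted p of 0.00493 and an adjusted p of 0.148, which did not pass. Within replicate numbers, the log2 difference was 0.45, 0.50 and 0.96, positive in 3 of 3. DESeq2 gave 0.62 with an adjusted p of 0.0667, and edgeR fitted without replicate number (the block) gave 0.67 with an adjusted p of 0.627. Over the settings that left out a replicate or a library, the log2 fold change lay between 0.46 and 0.77.

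Between Tam and Tam Fer1, Mertk differed by a log2 fold change of 0.47 (SE 0.18, edgeR adjusted p of 0.317), with within-replicate differences of 0.91, 0.11 and 0.46. Tam Fer1 against ctrl gave 0.16 (95% interval -0.24 to 0.56) and Fer1 against ctrl 0.08 (-0.32 to 0.48). The interaction, that is the Tam to ctrl difference minus the Tam Fer1 to Fer1 difference, was 0.55 on the log2 scale (SE 0.26) with an unadjusted p of 0.0535 and an edgeR adjusted p of 0.824.

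The Mertk group means in fresh medium and Tam supernatant were 153 ± 7.39 CPM (SD, n = 2) and 159 CPM. The Tam mean includes replicate 3, at 211 CPM, which medium ctrl lacks. Tam against medium ctrl gave -0.16 on the log2 scale (95% interval -0.61 to 0.30), with within-replicate differences of -0.22 and -0.17. Medium ctrl against ctrl gave 0.79 (SE 0.21) with an edgeR adjusted p of 0.0296, and the 2 groups did not overlap, as 34.5% of all tested genes did not. Without the block the same comparison gave 0.61 with an adjusted p of 0.340. The adjusted p was also above 0.05 without ctrl replicate 2 (0.0909), medium ctrl replicate 1 (0.284) or medium ctrl replicate 2 (0.109), and without all libraries numbered 1 (0.219), 2 (0.296) or 3 (0.0721). Tam and medium ctrl were each set against the same ctrl libraries, so these differences are not independent of one another.

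Axl (ENSMUSG00000002602, chr7:25757273-25788705, minus strand), the second receptor for Gas6 and one that macrophages raise in inflammation, stood highest in fresh medium. The medium ctrl libraries held 274 and 227 CPM, and every library exposed to a supernatant held less (34.5% of all tested genes separated medium ctrl from ctrl and 28.6% Tam from medium ctrl). In ctrl the values were 126, 168 and 46.5 CPM, in Fer1 134, 126 and 127 CPM, in Tam Fer1 71.0, 177 and 107 CPM, and in Tam 84.5, 141 and 84.7 CPM. The 4 supernatant groups overlapped with one another.

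Axl reached an absolute log2 fold change above 1 in both comparisons with medium and was called in neither. Medium ctrl against ctrl gave 1.11 (SE 0.37, 95% interval 0.30 to 1.92) with an edgeR adjusted p of 0.0810. The value was 0.82 without ctrl replicate 3, the library of 46.5 CPM, and 0.63 without medium ctrl replicate 1. Fitted on the medium ctrl and ctrl libraries alone, it was 0.75, under the fold threshold. Tam against medium ctrl gave -1.18 (SE 0.38) with an edgeR adjusted p of 0.119, where 3.07% of all tested genes were called. DESeq2 called both, with adjusted p-values of 0.0413 and 0.0409. Tam against ctrl gave -0.07 (95% interval -0.81 to 0.66), and its within-replicate differences of -0.57, -0.26 and 0.86 had both signs.

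**Figure D2:**
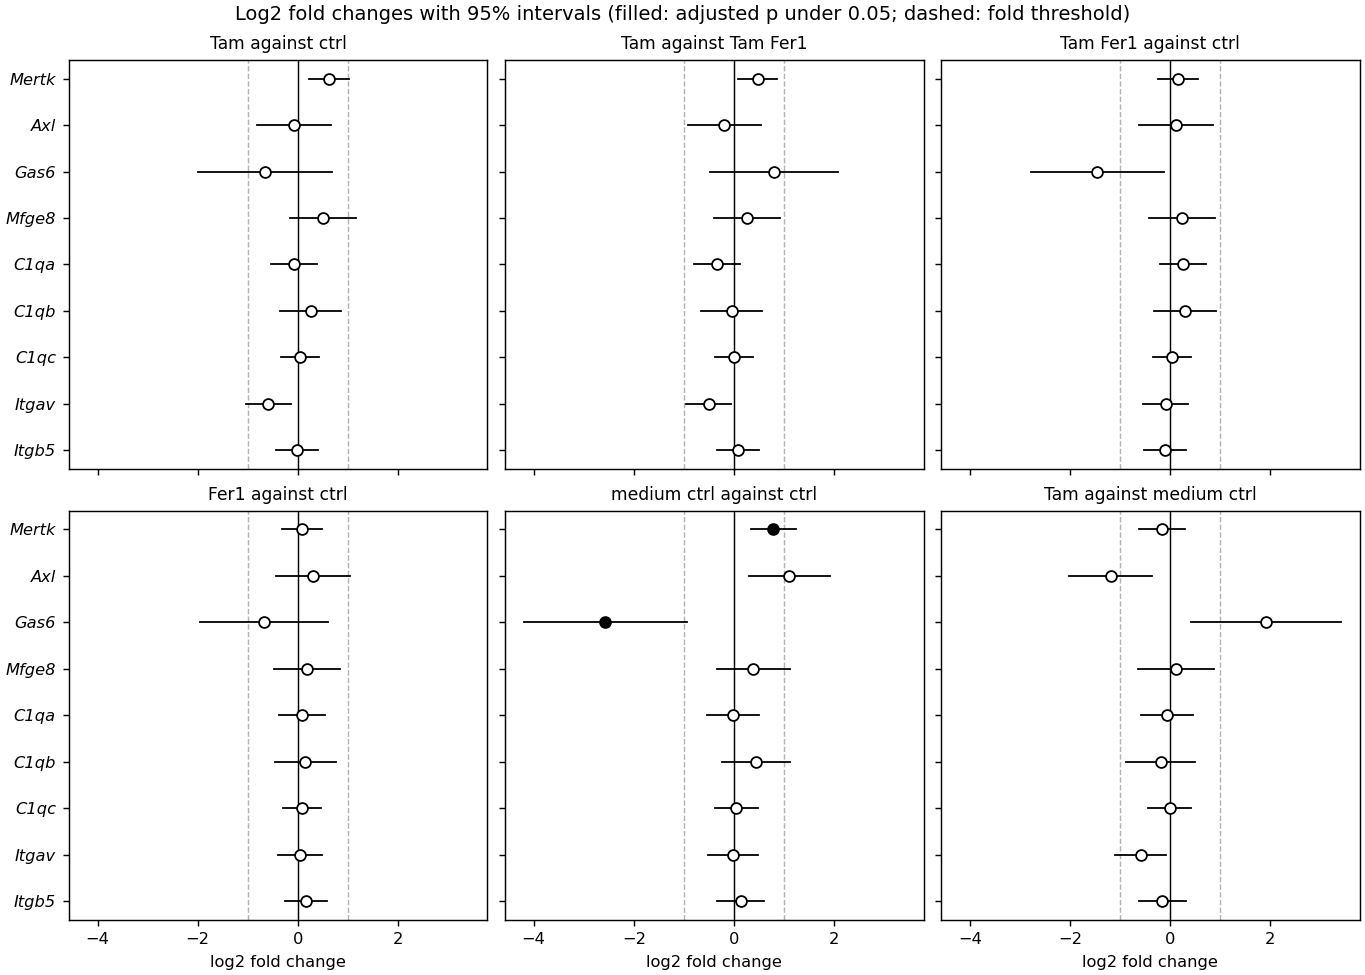
Log2 fold changes of the 9 tested genes in 6 comparisons, with 95% intervals as horizontal lines; filled points have an adjusted p under 0.05 and dashed lines mark the fold threshold. The 2 filled points are Gas6 (-2.57) and Mertk (0.79), both in medium ctrl against ctrl, and the widest intervals are those of Gas6.

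Gas6 (ENSMUSG00000031451, chr8:13465374-13494490, minus strand), a vitamin K-dependent ligand of the receptors above, was the one gene of the 10 called in any comparison, and also the most variable. Ctrl libraries held 274, 413 and 574 CPM and medium ctrl libraries 104 and 104 CPM. These groups did not overlap, which was also so for 34.5% of all tested genes. The means were 420.4 ± 150.0 CPM in ctrl (SD, n = 3) and 104 ± 0.332 CPM in medium ctrl (SD, n = 2). Medium ctrl against ctrl gave a log2 fold change of -2.57 (SE 0.75, 95% interval -4.20 to -0.94) with an edgeR adjusted p of 0.0464. Within replicate numbers the difference was -1.39 and -1.99, lower in 2 of 2 and both smaller in size than the fitted change. Medium ctrl has no replicate 3, so with the block fitted changes from medium also rest on the replicate 3 libraries of other groups.

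The Gas6 call sat close to the threshold. Fitted without the block it was -2.01 with an adjusted p of 0.196, and DESeq2 gave -2.58 with an adjusted p of 0.0146. Fitted by edgeR on the medium ctrl and ctrl libraries alone, the change was smaller, -1.72, and stayed called. The call was lost without ctrl replicate 2 (adjusted p = 0.0728), without medium ctrl replicate 1 (0.284), without medium ctrl replicate 2 (0.197), and without all libraries numbered 1 (0.211) or 2 (0.276). Without ctrl replicate 3, the highest of all 14 libraries, it was -1.74 with an adjusted p of 0.0378.

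Among the supernatant groups, Gas6 overlapped in every pair and varied widely within them. Fer1 libraries held 417, 391 and 178 CPM, Tam Fer1 libraries 399, 116 and 93.2 CPM, and Tam libraries 482, 541 and 70.6 CPM. In replicate 3 the ctrl library was the highest of the 14 and the Tam library the lowest, while in replicates 1 and 2 the Tam library was above its ctrl library. Within-replicate log2 differences between Tam and ctrl were 0.82, 0.39 and -3.02. The edgeR estimate of -0.66 (SE 0.62, 95% interval -2.00 to 0.68, adjusted p = 0.808) changed sign to 0.55 without the libraries of replicate 3, to 0.28 without ctrl replicate 3 and to 0.02 without Tam replicate 3. Tam Fer1 against ctrl gave -1.45 (SE 0.61) with an unadjusted p of 0.0345 and an edgeR adjusted p of 0.948, and it was -0.36 without ctrl replicate 3. Tam against medium ctrl gave 1.91 (SE 0.69, edgeR adjusted p of 0.172), and 2.30 with an adjusted p of 0.0128 without replicate 3.

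**Figure D3:**
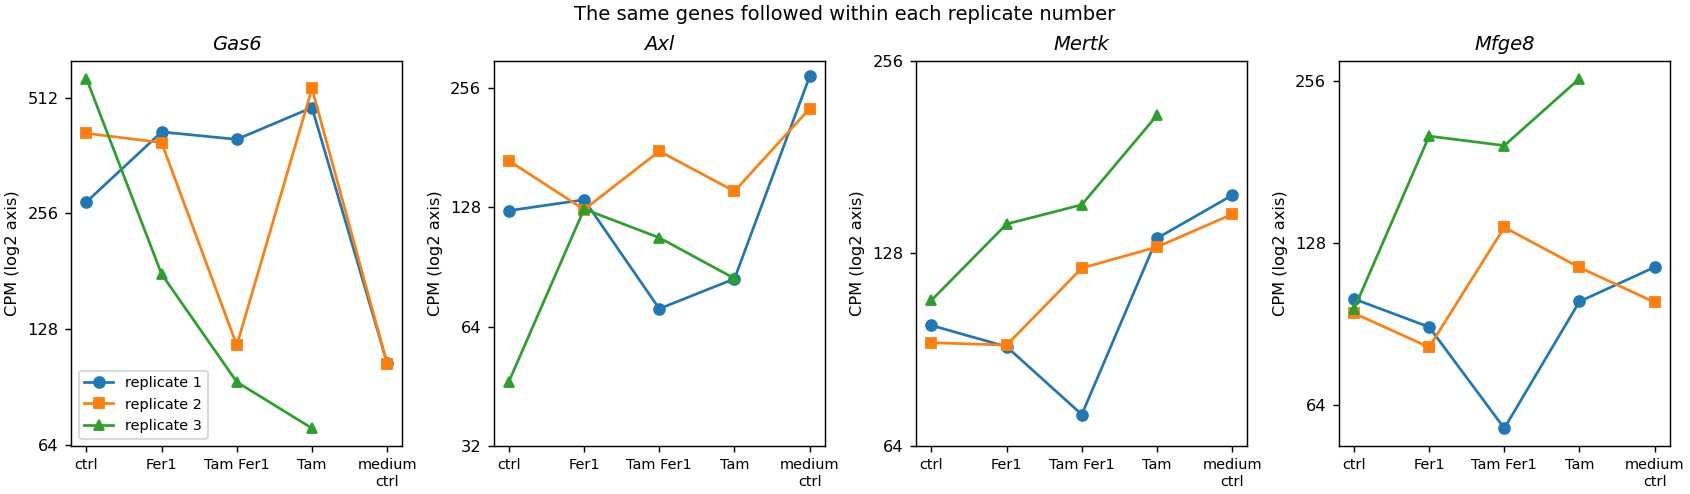
Gas6, Axl, Mertk and Mfge8 in each group, with points of the same replicate number joined; the vertical axes are TMM-scaled CPM on a log2 scale, and replicate 3 has no medium library. Gas6 is at 70.6 CPM in Tam replicate 3 and at 482 and 541 CPM in Tam replicates 1 and 2, and in Mertk each replicate has its Tam value above its ctrl value.

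The spread of Gas6 within groups had an SD of 1.03 on the log2 scale, above that of 98.8% of the 3358 tested genes with a mean of at least 50 CPM. With replicate number taken into account its place was 99.6%. The highest library stood 8.13-fold above the lowest. The monocyte marker sum, most of which is Ccr2, moved with part of this pattern: it was 23.3 CPM in Tam replicate 3, 75.4 and 164 CPM in Tam Fer1 replicates 3 and 2, and 112 CPM in Fer1 replicate 3, the supernatant libraries with the least Gas6. It was at the same time 362 and 377 CPM in the medium libraries, where Gas6 was low, and 164 CPM in ctrl replicate 3, where Gas6 was highest. Their part in the Gas6 values was not tested. The gene Tmem255b lies on the opposite strand across 3100 bp at the 3′ end of Gas6 and had 0 counts in every library.

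To show the start of the gene on which the call rests, 2 of 4 matching windows upstream of the Gas6 start site in the RefSeq promoter table (GRCm38.p6, chr8:13494584-13494613 and chr8:13494569-13494598) are printed 5′ to 3′ on the strand of the gene, with the reverse complement of the GC box GGGCGG in capitals.
Gas6 (first capital at -66 from the start): cccagctcggccCCGCCCccaaaggccccg
Gas6 (first capital at -51): cccccaaaggccCCGCCCtactcacactag
The GC box, searched on both strands in 300 bases per promoter (250 before to 50 after the start), occurred in 7 of the 9 promoters found for these genes and in 35.7% of the 32851 promoters of the table. It is a common element of promoters, and the match is a description of these letters.

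Mfge8 (ENSMUSG00000030605, chr7:79133768-79149060, minus strand), the bridge to integrins, was called in none of the comparisons, and its groups overlapped in every pair. Ctrl libraries were close together at 101, 94.9 and 96.5 CPM, and medium ctrl libraries held 116 and 99.5 CPM. The other groups were wide: 89.5, 82.1 and 202 CPM in Fer1, 58.0, 137 and 194 CPM in Tam Fer1, and 99.8, 115 and 259 CPM in Tam. In each of the 3 treated supernatant groups the highest library was replicate 3. Tam against ctrl gave 0.51 (SE 0.30, 95% interval -0.15 to 1.17, edgeR adjusted p of 0.628), and 0.12 without the libraries of replicate 3.

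Itgav (ENSMUSG00000027087, chr2:83724397-83806916, plus strand), the αv subunit, had its lowest group mean in Tam, at 41.4 ± 7.05 CPM (SD, n = 3). The Tam libraries held 38.8, 36.0 and 49.4 CPM, the ctrl libraries 78.3, 68.3 and 45.4 CPM, the Fer1 libraries 74.8, 68.8 and 52.4 CPM, the Tam Fer1 libraries 62.9, 65.5 and 50.6 CPM and the medium ctrl libraries 61.0 and 72.0 CPM. All 3 Tam libraries were below all libraries of Tam Fer1 and medium ctrl, and only ctrl replicate 3 fell within the Tam range. Full separation of Tam from Tam Fer1 was seen in 10.2% of all tested genes, and of Tam from medium ctrl in 28.6%.

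None of the Itgav differences passed the adjusted test. Tam against ctrl gave a log2 fold change of -0.59 (SE 0.21, 95% interval -1.04 to -0.14, edgeR adjusted p of 0.264), Tam against Tam Fer1 -0.50 (SE 0.20, adjusted p = 0.345) and Tam against medium ctrl -0.58 (SE 0.24, adjusted p = 0.236). Within replicate numbers, Tam minus ctrl was -1.01, -0.92 and 0.12 and Tam minus Tam Fer1 was -0.70, -0.86 and -0.04. Without Tam replicate 3 the edgeR estimates were -0.91 (adjusted p = 0.0154), -0.83 (adjusted p = 0.0199) and -0.83 (adjusted p = 0.0146), still under the fold threshold. Without all libraries numbered 3 they were -0.98 (0.0214), -0.76 (0.0458) and -0.84 (0.0164). Without Tam replicate 1 or 2 the edgeR estimates shrank instead. Tam against ctrl was then -0.46 (adjusted p = 0.696) and -0.42 (0.677), and Tam against Tam Fer1 -0.38 (0.818) and -0.33 (0.926). Tam against medium ctrl was -0.44 (0.624) and -0.39 (0.589). Without the block, Tam against ctrl had an edgeR adjusted p of 0.481.

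Itgb5 (ENSMUSG00000022817, chr16:33829665-33949338, plus strand), the β5 partner of αv, had means between 135 and 162 CPM in all groups. Its ctrl libraries held 144, 142 and 138 CPM, its Tam libraries 143, 146 and 129 CPM and its medium ctrl libraries 147 and 147 CPM. The medium libraries stood just above both other groups without overlap, by log2 fold changes of 0.13 (95% interval -0.34 to 0.60) against ctrl and, in Tam against medium ctrl, -0.15 (-0.62 to 0.32). Such separation was seen in 34.5% and 28.6% of all tested genes. Tam against ctrl was -0.02 (-0.43 to 0.40). Fer1 replicate 3 was the highest library, at 217 CPM, and Tam Fer1 replicate 1 the lowest, at 98.3 CPM.

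The C1q genes lie side by side on chromosome 4 within 18675 bp (chr4:136880129-136898803, minus strand) in the order C1qb, C1qc and C1qa along the chromosome. They were called in no comparison, and in none of the 10 pairs of groups did the libraries of any of them separate. C1qc was the steadiest of the 9 genes, between 915 and 1372 CPM over all 14 libraries, with an SD within groups of 0.20 on the log2 scale. Its ctrl libraries held 1207, 1208 and 1016 CPM and its Tam libraries 1314, 1307 and 915 CPM. Tam against ctrl was 0.04 on the log2 scale (95% interval -0.34 to 0.42) and medium ctrl against ctrl 0.05 (-0.38 to 0.48), so changes beyond these bounds were outside the intervals.

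C1qb ranged more widely, with 2452, 2649 and 1548 CPM in ctrl, 2637, 2619 and 2714 CPM in Tam, 1700.2, 3375 and 3150.1 CPM in Tam Fer1, 2471, 1956 and 2958 CPM in Fer1 and 3523 and 2458 CPM in medium ctrl. Tam against ctrl was 0.26 (95% interval -0.35 to 0.87). C1qa was nearly level in ctrl, at 556, 547 and 539 CPM, and spread from 437 to 972 CPM in Tam Fer1. Its Tam libraries held 530.1, 463 and 579 CPM, and Tam against ctrl was -0.08 (-0.54 to 0.38).

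The proportion of the chains was compared within libraries, where depth and scaling cancel. The log2 ratio of C1qa to C1qc lay between -1.50 in Tam replicate 2 and -0.40 in Tam Fer1 replicate 3. In each supernatant group replicate 3 had the highest C1qa to C1qc ratio, at -0.92 in ctrl, -0.71 in Fer1, -0.40 in Tam Fer1 and -0.66 in Tam. The ratio of C1qb to C1qc lay between 0.60 and 1.61. At 1.36 and 1.23 in medium ctrl it was above all ctrl and Fer1 libraries, and it overlapped with Tam and Tam Fer1. The log2 ratio of Itgav to Itgb5 was -1.89, -2.02 and -1.38 in Tam and -0.64, -1.11 and -1.70 in Tam Fer1, and the 2 groups overlapped.

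**Figure D4:**
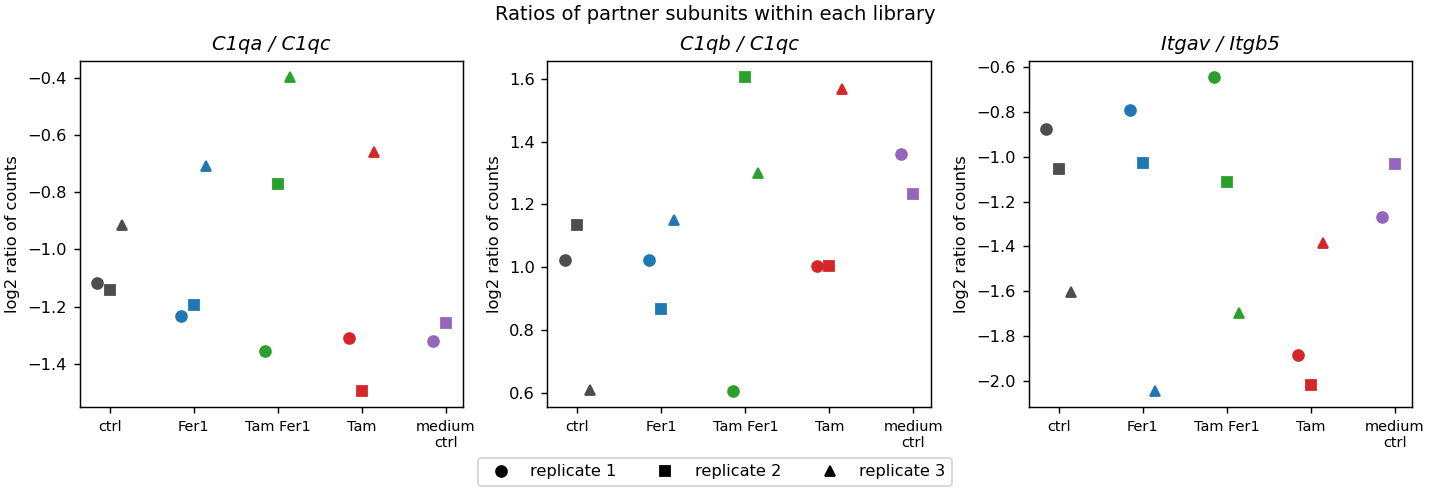
Log2 ratios of counts of C1qa to C1qc, C1qb to C1qc and Itgav to Itgb5 in each library, by group, with the replicate number as the shape of the point. The replicate 3 points are the highest of their supernatant group for C1qa to C1qc, and the Itgav to Itgb5 ratios of Tam replicates 1 and 2 are -1.89 and -2.02.

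Since the C1q genes are neighbours and macrophages express them through factors such as PU.1, the product of Spi1, the promoters were searched for the PU.1/ETS core AGGAAGT on both strands. Spi1 itself was present in all 14 libraries, at 255 to 476 CPM. The core occurred in 3 of the 9 promoters found for these genes and in 9.35% of the 32851 promoters of the RefSeq table (GRCm38.p6, 250 bases before to 50 after each start). The 3 windows are printed 5′ to 3′ on the strand of the gene, with the reverse complement of the core in capitals, at chr4:136886235-136886264, chr4:136893091-136893120 and chr2:83724377-83724406.
C1qb (first capital at -53): caggacctgaaACTTCCTgagggcagcagg
C1qc (first capital at -195): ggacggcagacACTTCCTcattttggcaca
Itgav (first capital at -9): ccgtgagcgcgACTTCCTctttcggcgggg
The direct-repeat element of liver X receptors (0.0152% of all promoters) and the interferon-stimulated response element (3.44%) had no match in these 9 promoters. C1qa has no entry in the table. The motifs were chosen after the expression values had been seen, and a match is not evidence of binding.

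Timd4 (ENSMUSG00000055546, chr11:46810800-46844332, plus strand) had 2 counts in all, 1 each in ctrl replicates 1 and 3, and 0 in the other 12 libraries. A count of 0 allows up to 3 counts in a library, which is 0.272 to 0.381 CPM at these depths, and intervals of this kind cover counting error only. No difference in Timd4 was detectable.

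Across the supernatants of living cells, the same 9 genes gave no call. Fer1 against ctrl called 0 of 9 (0 by DESeq2, 0 at an unadjusted p under 0.05), where 0% of all tested genes were called by edgeR and 1.14% had an unadjusted p under 0.05. Tam Fer1 against ctrl called 0 of 9 (0 by DESeq2, and 1, Gas6, at an unadjusted p under 0.05, beside 4.31% of all tested genes), where 0.0311% were called. Tam Fer1 against Fer1 called 0 of 9 (0 by DESeq2, 0 at an unadjusted p under 0.05, beside 2.07%), where 0.0233% were called. In these 3 comparisons no gene of the 9 separated the groups, where 3.6%, 5.35% and 6.09% of all tested genes did so for Fer1 against ctrl, Tam Fer1 against ctrl and Tam Fer1 against Fer1.

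Tam against Tam Fer1 called 0 of 9 (0 by DESeq2, and 2, Mertk and Itgav, at an unadjusted p under 0.05, beside 11.8% of all tested genes), where 1.03% were called and 1.35% had an adjusted p under 0.05. Tam against medium ctrl called 0 of 9 by edgeR and 1 by DESeq2, with 3 at an unadjusted p under 0.05 (Axl, Gas6 and Itgav), where 15.8% of all tested genes had such a p, 4.26% an adjusted p under 0.05 and 3.07% were called. The interaction was called for 0 of 9 (0 by DESeq2, 0 at an unadjusted p under 0.05, beside 6.2%), where 0.0311% were called. The median log2 fold change of the 9 genes was -0.02 in Tam against ctrl and 0.13 in medium ctrl against ctrl, next to 0.01 in both for all tested genes.

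The genes whose levels ran most alike over the 14 libraries, after replicate number means were removed, are given as a description without a test. They are the highest of all tested genes, and the libraries share groups and depth. For Mertk these were Nfam1 (Pearson r = 0.97), Pnpla2 and Amz1, for Axl they were Tlr3 (0.97), Plekha2 and Gpx1, and for Gas6 Emp1 (0.97), Trp53inp2 and Gtse1. Mfge8 ran most like Tmem104 (0.96), Ddx39b and Selenon, Itgav like Dnajc15 (0.90), Prr14l and Ccnd2, and Itgb5 like Trim11 (0.86), Rps18 and Ifitm6. C1qa ran most like Laptm5 (0.94), Ndufs7 and Il4ra, C1qb like Mcrip1 (0.97), Rac2 and Ano10, and C1qc like Cd300lg (0.89), Macroh2a1 and Ift172. No C1q gene was among the 3 nearest to another. Their own correlations on this scale were 0.75 (C1qa with C1qb), 0.66 (C1qa with C1qc) and 0.54 (C1qb with C1qc).

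Of 123 other genes of dead cell recognition and clearance, in 10 lists, 105 were tested. Tam against ctrl called 3 of these 105 (1.11% of all tested genes), Tam against Tam Fer1 2 (1.03%), medium ctrl against ctrl 11 (7.79%) and Tam against medium ctrl 6 (3.07%). Fer1 against ctrl, Tam Fer1 against ctrl and Tam Fer1 against Fer1 called 0 each by edgeR, while DESeq2 called 0, 1 and 1. At an unadjusted p under 0.05 there were 2, 10 and 4 of the 105, beside 1.14%, 4.31% and 2.07% of all tested genes. A total of 13 genes made up these 22 calls. DESeq2 made all 22, edgeR without the replicate block made 6 of them and edgeR fitted on only the groups compared made 16. The 6 lost in that last fit were Cx3cr1 (adjusted p = 0.142), Nr1h3 (0.385) and Timp3 (0.358) in Tam against ctrl, Thbs1 in Tam against Tam Fer1 (0.0700), and, by the fold threshold, C3 in Tam against medium ctrl (-0.88) and Slc2a1 in medium ctrl against ctrl (-0.88).

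Cx3cr1, the receptor for the find-me signal fractalkine, was the only one of these genes called lower in Tam against each of ctrl, Tam Fer1 and medium ctrl. Tam libraries held 186, 207 and 48.8 CPM, ctrl libraries 574, 657 and 278 CPM, Tam Fer1 libraries 586, 646 and 490.0 CPM, Fer1 libraries 576, 701 and 589 CPM, and medium ctrl libraries 353 and 481 CPM. Every Tam library was below every other library. The log2 fold change was -1.84 in Tam against ctrl (SE 0.31, edgeR adjusted p of 0.0157), -2.12 against Tam Fer1 (SE 0.32, adjusted p = 0.0122) and -1.37 against medium ctrl (SE 0.34, adjusted p = 0.0411). Without the replicate block the adjusted p-values were 0.162, 0.0938 and 0.177. Each of these calls was also lost without all libraries numbered 1 and without all numbered 2. The first call was lost without any one of ctrl replicates 1 and 2 and Tam replicates 1 and 2 (adjusted p up to 0.0752), the second without Tam Fer1 replicate 3 (0.0537) and the third without any one of Tam replicates 1 and 2 and medium ctrl replicates 1 and 2 (up to 0.304).

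Nr1h3, which encodes the sterol-activated nuclear receptor LXRα, a known regulator of Mertk, was called higher in Tam and in medium ctrl against ctrl. Ctrl libraries held 4.46, 3.32 and 5.74 CPM, Tam libraries 7.16, 7.98 and 24.4 CPM and medium ctrl libraries 21.7 and 19.5 CPM, with no overlap of either with ctrl (11% and 34.5% of all tested genes). Tam Fer1 libraries held 4.39, 6.37 and 11.3 CPM and Fer1 libraries 4.76, 4.17 and 8.81 CPM, and both groups overlapped with Tam. Tam against Tam Fer1 was not called, and the interaction was 1.07 (SE 0.37, edgeR adjusted p of 0.596). Tam against ctrl rose by a log2 fold change of 1.37 (SE 0.27, edgeR adjusted p of 0.0270), a call lost without any one of the 6 libraries compared (adjusted p up to 0.116) and without the replicate block (0.363). Medium ctrl against ctrl rose by 2.58 (SE 0.29, adjusted p = 0.000182) and kept its call without each single library and without the block. Without all libraries numbered 2, which leaves a single medium library, it was 2.62 and lost its call. Tam against medium ctrl gave -1.21 (SE 0.28, adjusted p = 0.0321), or -0.65 without the block (adjusted p = 0.798), and lost its call without any one of Tam replicates 1 and 2 and both medium libraries (up to 0.296).

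Timp3, an inhibitor of the proteases that shed Mertk from the cell surface, was called higher in Tam against ctrl (1.43, SE 0.31, edgeR adjusted p of 0.0437) and in medium ctrl against ctrl (2.05, SE 0.34, adjusted p = 0.00212). Its level was low, at 3.62 ± 1.75 CPM in ctrl and 10.6 ± 7.22 CPM in Tam (SD, n = 3 each), and without the replicate block the adjusted p-values were 0.692 and 0.341. The Tam call was kept in 1 of 6 settings that left out a single library, that without Tam replicate 2, and its adjusted p reached 0.242 in the others. The sheddase genes of the same list, Adam10, Adam17 and Adam9, and Rhbdf2, which encodes a regulator of ADAM17, were called in no comparison.

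Among bridging molecules, Thbs1 (thrombospondin 1, a bridge to αv integrins and CD36) was called higher in Tam against Tam Fer1, by 2.47 (SE 0.40, edgeR adjusted p of 0.0135). Tam libraries held 76.8, 86.8 and 32.02 CPM and Tam Fer1 libraries 10.98, 7.75 and 18.5 CPM, without overlap (10.2% of all tested genes). The call was kept without the replicate block (adjusted p = 0.0403) and lost with only the groups compared (0.0700) and without any one of Tam Fer1 replicates 1 and 2 and Tam replicates 1 and 2 (up to 0.0832). Medium ctrl against ctrl gave 1.93 (adjusted p = 0.0117) for Thbs1, 1.85 (0.000740) for C3, the complement component that opsonises targets, and 1.75 (0.00711) for Fn1, fibronectin. The Fn1 libraries of these groups overlapped, at 10.1, 2.41 and 20.2 CPM in ctrl and 26.2 and 10.1 CPM in medium ctrl. The C3 call was kept without each single library and lost without all libraries numbered 2. That of Thbs1 was lost without ctrl replicate 2 or either medium library. That of Fn1 was lost without medium ctrl replicate 2, without all libraries numbered 2 and without the block (0.822). C3 was also called lower in Tam against medium ctrl (-1.04, adjusted p = 0.0411), a call lost without any one of the 5 libraries (up to 0.299) and without the block (0.0867).

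**Figure D5:**
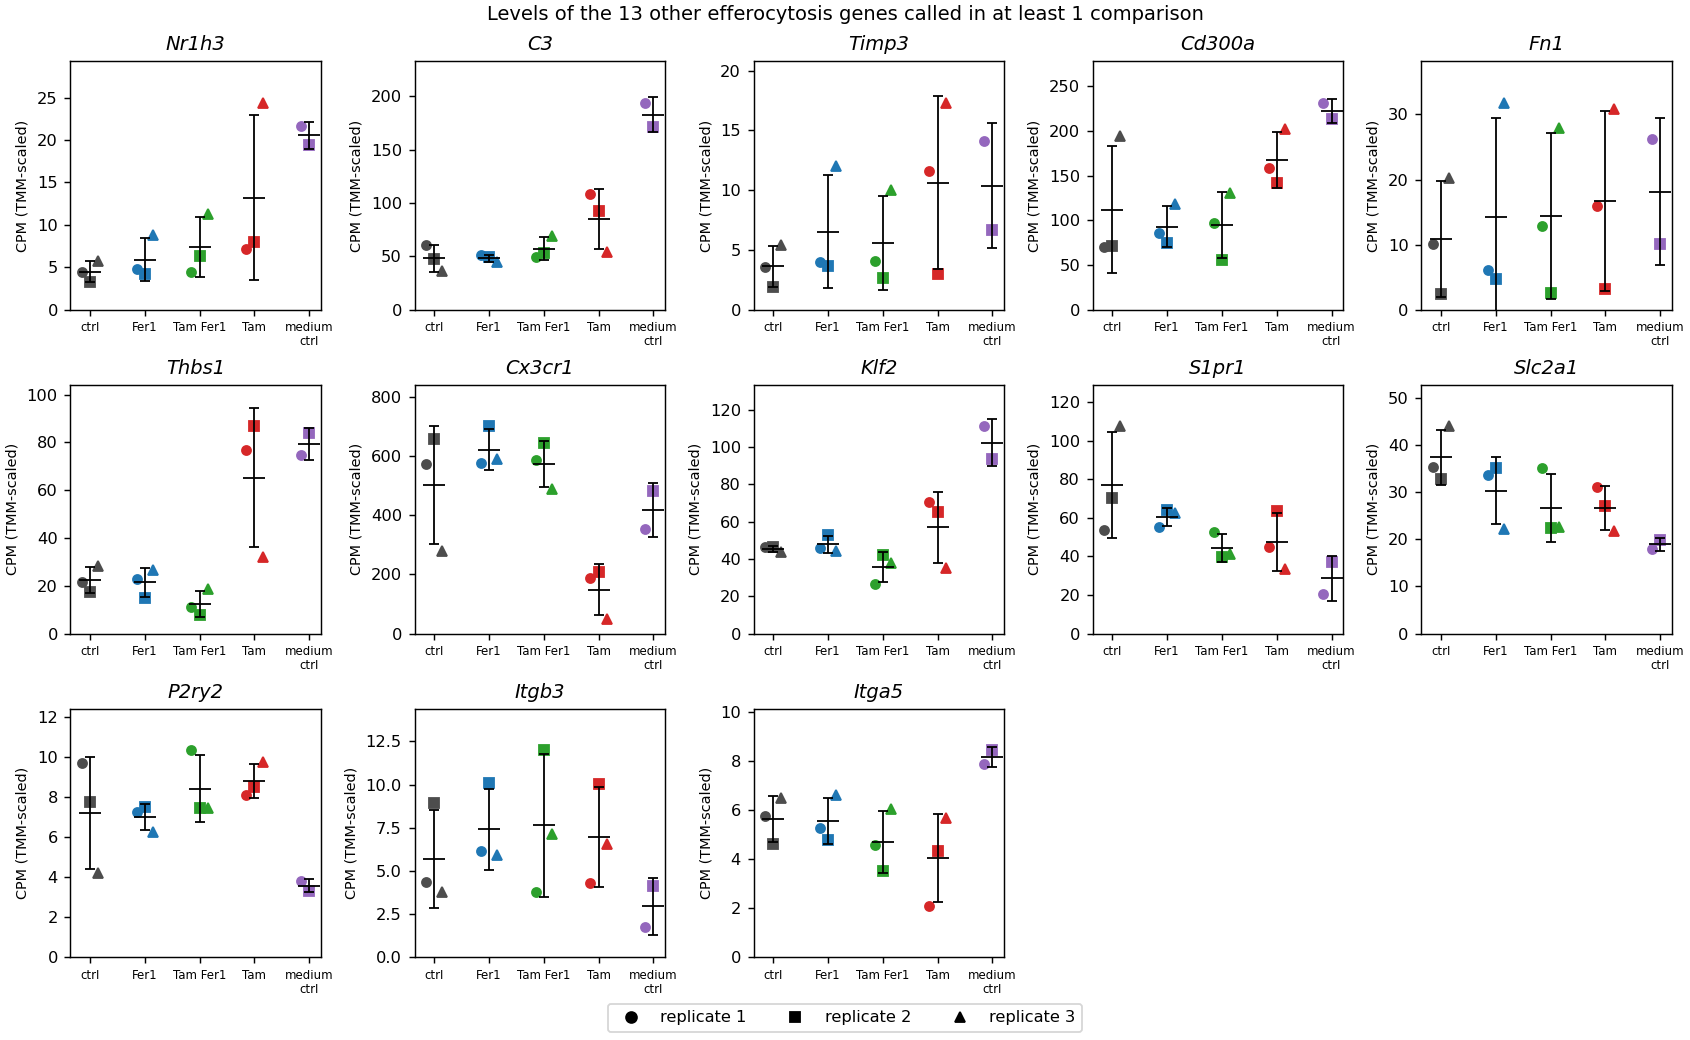
Levels of the 13 other genes called in at least 1 comparison, as TMM-scaled CPM in each library on axes that start at 0, with the group mean (line) and ± 1 SD (bar, cut at 0). Cx3cr1 is lowest in the Tam libraries, at 48.8 to 207 CPM, and Nr1h3 and C3 are highest or near the highest in medium ctrl, where C3 stands at 171 and 194 CPM.

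Among other receptors, medium ctrl was higher than ctrl for Cd300a, a phosphatidylserine receptor that inhibits uptake (1.40, edgeR adjusted p of 0.00296), and lower for Itgb3, the β3 partner of αv (-1.06, adjusted p = 0.0491). Itgb3 was called higher (1.362, adjusted p = 0.0296) and Itga5, the α5 partner of fibronectin receptors, lower (-1.22, adjusted p = 0.0498) in Tam against medium ctrl. These integrin genes were near 3 to 8 CPM in the groups compared. Without the replicate block none of these 4 calls was kept (adjusted p-values of 0.240, 0.482, 0.466 and 0.283). The 3 integrin calls were each lost without either medium library, the first also without ctrl replicate 1 or 2 and the others also without Tam replicate 1 or 2, with adjusted p up to 0.250, 0.243 and 0.306. That of Cd300a was kept, in part narrowly, without each single library, and was lost without all libraries numbered 1 and without all numbered 2.

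The remaining calls concerned medium ctrl against ctrl or against Tam. Klf2, a transcription factor that restrains macrophage activation, was higher in medium ctrl than in ctrl (1.09, edgeR adjusted p of 0.0160). S1pr1, the receptor for the find-me lipid sphingosine-1-phosphate (-1.43, adjusted p = 0.0192), Slc2a1, the glucose transporter GLUT1 (-1.07, adjusted p = 0.0207), and P2ry2, the receptor for released nucleotides (-1.08, adjusted p = 0.0477), were lower. P2ry2 was also higher in Tam than in medium ctrl (1.41, adjusted p = 0.0285). All 5 calls were lost without either medium library (adjusted p up to 0.213, 0.234, 0.229, 0.268 and 0.256). Those of Klf2 and P2ry2 against ctrl were also lost without ctrl replicate 1 or 2, that of Slc2a1 without ctrl replicate 3, and that of P2ry2 in Tam without Tam replicate 2. Without the block Klf2 and S1pr1 kept their calls, and Slc2a1 and P2ry2 did not (0.0607, 0.123 and 0.0984).

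In 4 lists edgeR called no gene in any comparison: C1q receptors and complement regulators (7 tested, led by C3ar1 and Cd93 at means of 1499.9 and 712 CPM), engulfment machinery (14 tested, Rac1 and Rhoa at 450.3 and 218 CPM), don't-eat-me receptors and ligands (6 tested, Sirpa and Cd47 at 1149 and 475 CPM) and LC3-associated phagocytosis (12 tested, Cybb and Cyba at 2097 and 253 CPM). In medium ctrl against ctrl these lists had 3, 3, 2 and 2 genes at an unadjusted p under 0.05, beside 24% of all tested genes, and DESeq2 called 1, 0, 0 and 0. In Tam against medium ctrl they had 2, 2, 3 and 3, beside 15.8%, and in Tam against ctrl 0, 1, 1 and 1, beside 10.8%, with 0 called by DESeq2 in either. In medium ctrl against ctrl, edgeR adjusted p-values under 0.05 with smaller log2 fold changes were found for C3ar1 (0.81), Cd47 (0.66), Cybb (0.75) and Pirb (0.54). All were higher in medium ctrl, and Pirb was named after its value was seen. Of all tested genes, 10.9% had such an adjusted p in this comparison. In the don't-eat-me list, Cd24a, also named after its value was seen, was lower in Tam than in ctrl (-0.94, edgeR adjusted p of 0.0368). An adjusted p under 0.05 was found there in 1.49% of all tested genes. Cd47 was lower in Tam than in medium ctrl (-0.56, adjusted p = 0.0490), where 4.26% of all tested genes had an adjusted p under 0.05.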

How the data were processed

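RNA of pBMDMs was sequenced as 3′ (QuantSeq) libraries. The authors aligned reads with STAR 2.7.10a and quantified genes with Salmon 1.5.2 through nf-core, and the deposited values are expected counts, that is estimated counts per gene without normalisation. Of 775796 values, 30109 were not whole and were rounded. The authors' table of comparisons was not used. The methods and notes name GRCh38 and GRCm38 while the identifiers are those of mouse genes, so positions are those of GENCODE M21 (GRCm38).

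Counts were scaled by TMM (factors 0.910 to 1.06), filtered by filterByExpr (minimum count 10) and tested with edgeR 4.0.16 (R 4.3.3, limma 3.58.1) over all 14 samples, two-sided, with group and replicate number in the model, since the study's design held the mouse; that the number is the mouse was assumed. Same-numbered samples deviated together more than others by median (median r = 0.247 over 26 pairs, lowest 0.00221, against -0.139 for other pairs). Over all genes, edgeR made 143 calls in Tam against ctrl with the block and 6 without it. Within-replicate differences are of log2 CPM with a prior count of 2. Nothing in the labels shows separate cultures or animals, so p-values may measure only the spread between these samples. Alternatives were DESeq2 1.42.0, no block, RLE or no scaling, no filter or a minimum count of 30, only the groups compared, no fold threshold and each replicate or library left out. The script was tested on simulated data that held no replicate effect, so the handling of such an effect was not tested.

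The members and lists were chosen with earlier results of these data known. Named genes are the 10 members, other list genes called in any of 7 comparisons, the 2 highest of lists without a call, and the 3 genes most like each member.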

Additional observations from a re-analysis of the deposited data

Results flagged for a closer look

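Thbs1 was flagged because Tam minus ctrl and Tam Fer1 minus Fer1 had opposite signs in every replicate, so the signs below were fixed by that choice. By edgeR, Thbs1 was called neither in Tam against ctrl nor in Tam Fer1 against Fer1. In Tam Fer1 against Fer1, 0 of the 10 tested genes of its list had an edgeR unadjusted p under 0.05, and DESeq2 called 1. Tam minus ctrl within replicate numbers was 1.84, 2.30 and 0.18 on the log2 scale, higher in 3 of 3, and Tam Fer1 minus Fer1 was -1.03, -0.93 and -0.53, higher in 0 of 3. The test of the difference itself, edgeR's interaction, gave a log2 difference of 2.41 (SE 0.55) with an unadjusted p of 0.000794 and an adjusted p of 0.251, which did not pass.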

How the results depend on the processing

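Calls among the 9 tested genes changed in 2 of 8 comparisons. In medium ctrl against ctrl the count of 1 was 0 with no replicate block and 2 with no filter on low counts, with DESeq2 or by the adjusted p alone, and it lay between 0 and 1 when replicates or libraries were left out. In Tam against medium ctrl the count of 0 was 2 with no filter and with only the groups compared, 1 with DESeq2, and between 0 and 1 when replicates or libraries were left out. The other 6 comparisons had a count of 0 in every setting run. The replicate block moved no other call among the 9 genes. The cause was not tested.

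Axl in medium ctrl against ctrl was called with no filter (log2 fold change 1.07, adjusted p = 0.0276) and with DESeq2 (1.11, 0.0413). With only the groups compared it was 0.75 (edgeR adjusted p of 0.000617), which did not reach the fold threshold. Axl in Tam against medium ctrl was called with no filter (-1.16, 0.0333), only the groups compared (-1.21, 0.000656) and DESeq2 (-1.19, 0.0409). Gas6 in Tam against medium ctrl was called with no filter (1.94, 0.0240), only the groups compared (2.27, 2.72e-07) and without replicate 3 (2.30, 0.0128). Gas6 in medium ctrl against ctrl ranged from -3.21 to -1.74 over the settings that left out libraries. The 61 values of these genes with an unadjusted p of 0.05 or more were called in 0 of 1018 recomputations, and 47 of them changed sign in at least 1, in 149 cases in all, so their direction is not settled. Over all genes, the calls in Tam against ctrl were 143 by edgeR with the block, 6 without it, 0 with only the groups compared, 259 with no filter and 267 by DESeq2. In medium ctrl against ctrl they were 1001, 457 and 1096, and in Tam against medium ctrl 394, 97 and 510, or 667 with only the groups compared. In Tam against Tam Fer1 they were 132, 18 and 234. In the 3 comparisons among Fer1, Tam Fer1 and ctrl, edgeR and DESeq2 gave 0 and 9 (Fer1 against ctrl), 4 and 20 (Tam Fer1 against ctrl) and 3 and 24 (Tam Fer1 against Fer1). Leaving out a replicate or library gave 0 to 191 in Tam against ctrl, 87 to 1056 in medium ctrl against ctrl and 0 to 492 in Tam against medium ctrl. At these depths 3 counts are at most 0.381 CPM, under every level of the 9 tested genes.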
